A study of Homo sapiens with 4 samples.

Results

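The clone sh-G1 was compared with a mock-transfected control clone, ctrl, by 2-colour microarray. Both arrays labelled as clone 1 were taken, which is 2 of the 4 arrays of the study; the other 2 compare a second clone, sh-G2, with the same ctrl. All 3 clones derive from A2780s, an established human ovarian adenocarcinoma line that grows attached to plastic. The sh-G1 cells carry a short hairpin RNA (shRNA) against GALNT3 in the plasmid pSilencer 4.1 puro, and were selected with puromycin for stable transfection. The ctrl cells were mock-transfected with the same plasmid, which is also a puromycin-selected clone, so that vector and drug are shared by all groups. One hairpin sequence was used for both knockdown clones. On array 1 the sh-G1 RNA was labelled with the red dye Cy5 and ctrl with the green dye Cy3, and on array 2 the dyes were swapped. Each value below is the log2 ratio of sh-G1 over ctrl, given for array 1 and then array 2, where 1 is a doubling, 0 is no difference and a negative value is lower in sh-G1.

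As background, GALNT3 encodes one of the polypeptide N-acetylgalactosaminyltransferases. These Golgi enzymes attach the first sugar of mucin-type O-glycans to serine and threonine residues of secreted and membrane proteins. The many members of the family overlap in the substrates they accept, and other enzymes then lengthen and cap the chains. In ovarian carcinoma, mucins such as MUC1 are among the proteins decorated in this way. A hairpin RNA lowers a transcript through the RNA interference machinery, and a stable clone is a population grown from a transfected cell, which can differ from its parent line in more than the targeted gene.

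Because 1 sh-G1 clone was set against 1 ctrl clone, no test of the knockdown was possible, and a gene was counted as higher or lower when both arrays put it at least 1.5-fold from ctrl on the same side. The paired arrays measure labelling and hybridization, and whether they share an RNA extract is not stated in the sources used here. A change in sh-G1 and its absence in sh-G2 cannot be assigned to the hairpin or to the clone. All 4 arrays lie on 1 slide. Of 43376 spots an array, sh-G1 was well above background in 95.4% and 97%, ctrl in 97.5% and 97.6%, and no spot was saturated. Across probes the ratios of both sh-G1 arrays correlated with r = 0.32, a description over probes that share array and RNA, since most ratios lie near 0. The median SD between the arrays was 0.16 over 16995 genes. The median log2 ratio of all genes was -0.0011.

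GALNT3 itself showed no decrease on these arrays. Its probe gave log2 ratios of -0.09 and 0.08 in sh-G1. The probe is dim, with 1.3% of the probes kept dimmer than it, and sh-G1 was well above background at it on 1 of 2 arrays against 2 of 2 for ctrl. The ctrl signal lay 0.30 log2 units above the lowest signal called well above background, against 3.05 units for the median probe. A decrease larger than that was not measurable there, so the probe does not check the label, and sh-G1 remains named as the labels give it.

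Among the GALNT family, 18 of 20 genes were measured, with 1 higher (5.56%, against 0.641% of all genes) and 1 lower (5.56%, against 1.64%). The family median was -0.0049. GALNT4 stood at 1.05 and 1.1, and its second probe averaged 0.65; on the sh-G2 arrays GALNT4 averaged 0.50. POC1B, a nearby gene on chromosome 12 with which GALNT4 forms a known read-through transcript, was also higher, with a mean of 0.85. GALNT7, an enzyme that prefers peptides already carrying a sugar, stood at -0.71 and -0.95. GALNT14 gave -0.53 and -0.61, past the threshold on array 2 alone. GALNT1, GALNT2 and GALNT6 averaged -0.03, 0.22 and -0.32. The other O-glycan enzymes were not past the threshold on both arrays in any of 18 measured genes, against 0.641% higher and 1.64% lower of all genes. The furthest from ctrl, ST3GAL1, gave -0.74 and -0.54, past the threshold on array 1 alone, and averaged -0.91 in sh-G2. C1GALT1, which makes the core 1 structure, gave 0.21 and -0.22. None of the 10 measured mucins was past the threshold on both arrays, with MUC1 at -0.12 and -0.18.

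Over all genes, more were lower than higher in sh-G1. Of 16995 genes, 109 (0.641%) were at least 1.5-fold higher on both arrays and 278 (1.64%) at least 1.5-fold lower. Counted over 39639 probes, 177 (0.447%) were higher and 485 (1.22%) lower. Either array alone would have given 295 higher and 1279 lower probes on array 1 and 699 higher and 873 lower on array 2, so the counts rest on the demand that both orientations pass. The sh-G2 arrays, against the same ctrl, gave 123 higher genes (0.724%) and 343 lower genes (2.02%).

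**Figure D1:**
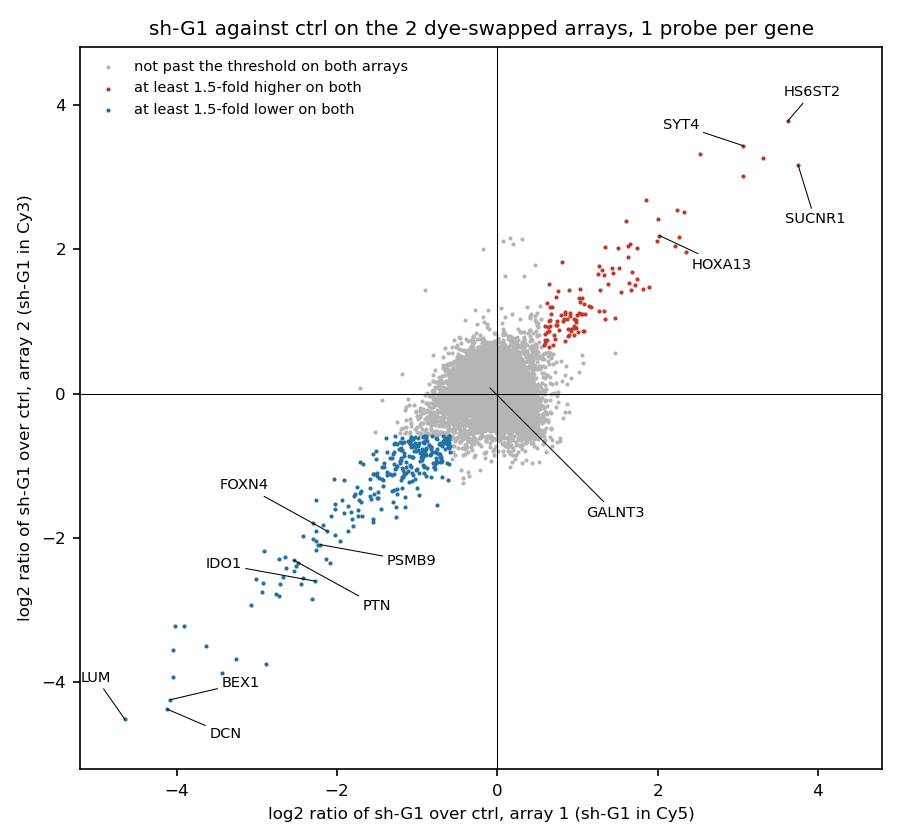
Log2 ratio of sh-G1 over ctrl for each measured gene on array 1 (horizontal axis, sh-G1 in Cy5) and array 2 (vertical axis, sh-G1 in Cy3), 1 probe per gene. The 109 genes higher on both arrays are red and the 278 lower genes blue; LUM lies at the low end at -4.65 and -4.51, HS6ST2 at the high end at 3.62 and 3.77, and GALNT3 near 0.

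HS6ST2, SUCNR1, AMIGO2 and SYT4 had the highest mean ratios in sh-G1. HS6ST2, which adds sulfate to heparan sulfate chains, stood at 3.62 and 3.77, a mean of 13-fold, while its second probe averaged 0.04. SUCNR1, the receptor for succinate, stood at 3.75 and 3.16, and at a mean of 1.98 in sh-G2. AMIGO2, an adhesion molecule with leucine-rich repeats, stood at 3.32 and 3.26, and ZFHX4, a zinc finger and homeobox transcription factor, at 3.07 and 3.02. On the sh-G2 arrays HS6ST2, AMIGO2 and ZFHX4 were also high, with means of 4.13, 3.72 and 3.55. KCNMB4, a potassium channel subunit, followed at 1.86 and 2.68, and ADGRV1, an adhesion receptor needed in hearing and vision, at 2.26 and 2.17. The remaining 6 of the 12 highest genes, SYT4, SHISA3, FMN2, ASB5, SLITRK3 and PWWP3B, differed between the clones and are described below.

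The lowest ratios were larger in size than the highest. LUM and DCN, which encode the collagen-binding proteoglycans lumican and decorin, stood at -4.65 and -4.51 and at -4.12 and -4.37, which is a mean of 23.9-fold and 18.9-fold lower. BEX1, a small adaptor protein of neural cells, stood at -4.08 and -4.24. MEST, an imprinted gene expressed from the paternal copy, stood at -4.05 and -3.92. UCHL1, a deubiquitinating enzyme of neurons, stood at -3.44 and -3.87, ARMCX2 at -4.02 and -3.22, and NAP1L3, a histone chaperone relative, at -3.26 and -3.68. FLRT3 and ANXA3, a membrane adhesion protein and a phospholipid-binding annexin, averaged -3.56 each. SOX2, a transcription factor of stem and progenitor cells, stood at -2.89 and -3.74, and SCHIP1 at -3.07 and -2.92. All the genes of this paragraph were lower on the sh-G2 arrays too, with means from -2.04 for LUM to -5.22 for MEST.

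Changes found in sh-G1 and absent on the sh-G2 arrays were a small share of these. A gene was called absent in sh-G2 when its mean ratio there was within 1.2-fold of ctrl. By that rule 26 of the 109 higher genes were absent in sh-G2, which is 0.153% of all genes, and 17 of the 278 lower genes, which is 0.1%. Over probes, 42 (0.106%) were higher and 44 (0.111%) lower by the same rule. All 43 genes were well above background in sh-G1 on both arrays. The rule used these ratios, so that the counts describe the choice. The difference between the clones was tested for each probe in one limma model over the 4 arrays, with a term for the dye and Benjamini-Hochberg adjustment over 39639 probes. It called 35 probes (0.0883%) as higher in sh-G1 than in sh-G2 and 20 (0.0505%) as lower, in 33 genes, while 2941 probes had an unadjusted p under 0.05. It sets the clones against the spread between arrays, and ctrl cancels from it. The calls depend on how the spread is modelled, since 5 of the 55 remained without the dye term and 3 of 55 where the prior variance followed the mean log ratio in place of brightness. Without sh-G1 array 2, 23 of the 55 remained.

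Of the 26 genes higher in sh-G1 alone, 8 also passed that test. SYT4, a synaptotagmin of secretory vesicles, stood at 3.07 and 3.43 in sh-G1 against -0.17 and 0.23 in sh-G2, a difference of 3.22 (SE 0.09, adjusted p = 0.00299). SHISA3, a membrane protein that restrains WNT and FGF receptors, stood at 2.53 and 3.31 against -0.24 and -0.07, a difference of 3.07 (SE 0.16, adjusted p = 0.0189). FMN2, a formin that builds actin filaments, stood at 2.33 and 2.52 against -0.07 and -0.20 (adjusted p = 0.0162). Its other probes were not alike: one averaged -0.02, and at the other ctrl was not well above background, which gives sh-G1 at least 3.52-fold higher there, taken against the lowest signal well above background. ASB5, a substrate adaptor of ubiquitin ligases known from muscle, stood at 2.24 and 2.54 against 0.11 and -0.0012 (adjusted p = 0.0189), with a second probe at a mean of 0.40.

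The other passing genes were smaller in size. ZAR1, an RNA-binding protein of the oocyte, stood at 1.66 and 2.08 in sh-G1 against -0.21 and 0.03 in sh-G2 (adjusted p = 0.0189). FSTL5, a secreted follistatin relative, stood at 1.68 and 1.68 against 0.20 and 0.14 (adjusted p = 0.0213). SLITRK6, a neuronal transmembrane protein, stood at 1.06 and 1.33 against -0.33 and -0.11 (adjusted p = 0.0257). SULF1, a secreted enzyme that removes sulfate from heparan sulfate, stood at 1.03 and 1.45 against -0.11 and 0.21 (adjusted p = 0.0449). Their separation from the sh-G2 arrays follows from the rule that chose them. Leaving out sh-G1 array 2 took the adjusted p of ZAR1, FSTL5, SLITRK6 and SULF1 to 0.108, 0.0543, 0.359 and 0.762, and leaving out sh-G1 array 1 took that of SLITRK6 to 0.0619. Of the 15 alternative settings, SULF1 missed the test under 6 and SLITRK6 under 5.

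The remaining 18 higher genes met the rule on absence without passing the test at their brightest probe. BCHE, butyrylcholinesterase, stood at 1.52 and 1.74 in sh-G1 against 0.24 and 0.03 in sh-G2 (adjusted p = 0.0716). AADAC, a liver-type esterase, stood at 1.27 and 1.15 (adjusted p = 0.0553) and GRM3, a glutamate receptor, at 1.1 and 1.11 (adjusted p = 0.0749). RGCC, a regulator of cell cycle kinases, stood at 1.17 and 1.2 by its brightest probe (adjusted p = 0.112), and its second probe averaged 1.83 with an adjusted p of 0.0248. NR3C1, the glucocorticoid receptor, stood at 0.98 and 1.01, with a second probe at 0.76. CDKN1A, the p53-controlled inhibitor of cyclin-dependent kinases, is among the smallest of the 26 at 0.64 and 0.65, against 0.0034 and 0.36 in sh-G2 (adjusted p = 0.586). Its second probe averaged 0.70. The other 12 are PCDH15, SLC10A4, CCDC57, TSPAN8, CRB1, KANK4, PPP1R1C, ARL6, NPFFR2, LMO3, SETBP1 and TAX1BP1. Of the 26 genes, 17 were measured by 1 probe.

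**Figure D2:**
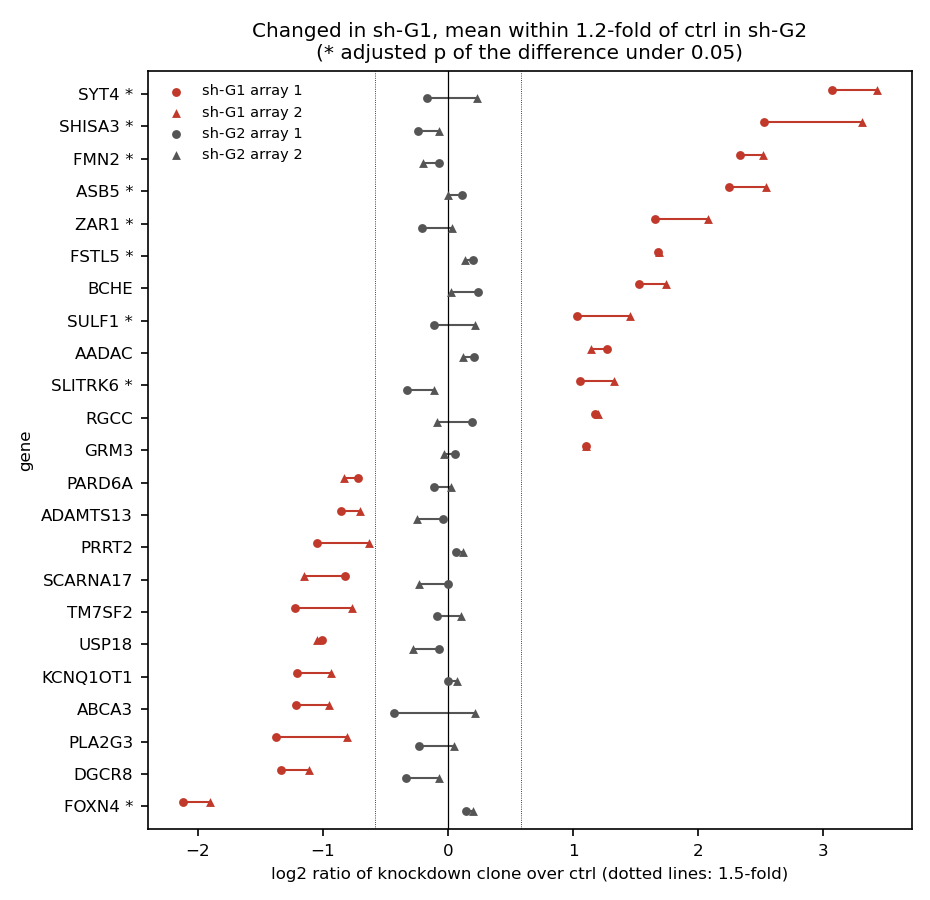
Log2 ratio over ctrl on each of the 4 arrays for the named genes that were at least 1.5-fold changed on both sh-G1 arrays and within 1.2-fold of ctrl in sh-G2, 12 higher and 11 lower. Each point is 1 array; the sh-G1 points of SYT4 lie at 3.07 and 3.43 and those of FOXN4 at -2.12 and -1.90, while the sh-G2 points lie near 0 by the rule that chose the genes.

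Of the 17 genes lower in sh-G1 alone, FOXN4 passed the test. FOXN4, a forkhead transcription factor of retinal and spinal progenitors, stood at -2.12 and -1.90 in sh-G1 against 0.14 and 0.20 in sh-G2, a difference of -2.18 (SE 0.12, adjusted p = 0.0189). None of the others passed it, so no difference between the clones was shown for them. ABCA3, a lipid transporter, stood at -1.22 and -0.95. USP18, the protease that removes ISG15 from proteins and restrains interferon signalling, stood at -1.01 and -1.05 against -0.07 and -0.28 in sh-G2 (adjusted p = 0.182), with a second probe at -0.64. TM7SF2, a reductase of cholesterol synthesis, stood at -1.22 and -0.77, with a second probe at -0.36. For 4 others the probes of the gene disagreed. DGCR8, the RNA-binding partner of DROSHA in microRNA processing, stood at -1.33 and -1.12 by its brightest probe and averaged -0.03 by another; under the scanner software's own ratios the mean of the brightest probe was 0.02. PLA2G3, a secreted phospholipase, stood at -1.38 and -0.81 against -0.17 by another probe. KCNQ1OT1, a nuclear antisense RNA of an imprinted domain, stood at -1.21 and -0.94 against -0.22, and ADAMTS13, the protease of von Willebrand factor, at -0.85 and -0.71 against -0.02 and -0.05. SCARNA17, a small RNA of Cajal bodies, stood at -0.82 and -1.16, PRRT2 at -1.05 and -0.63 and PARD6A, a cell polarity adaptor, at -0.72 and -0.83. CAST, PRP4K, NRBP2, SEMA3B and ZDHHC11 had means between -0.60 and -0.75.

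A handful of genes went opposite ways in the clones. PTN, pleiotrophin, a secreted heparin-binding growth factor, stood at -2.54 and -2.31 in sh-G1 but at 3.47 and 3.58 on the sh-G2 arrays. The difference was -5.95 (SE 0.11, adjusted p = 0.00222), and its second probe gave -1.26 against 3.04 (adjusted p = 0.00297). PTN passed under each of the 15 alternative settings of this test. RBMS3, an RNA-binding protein, stood at 1.34 and 2.03 in sh-G1 against -2.22 and -1.53 (adjusted p = 0.00297), although its other probes averaged 0.27 and 0.33 in sh-G1. HOXA13, the last gene of the HOXA cluster, stood at 2.02 and 2.19 against -0.86 and -0.64 (adjusted p = 0.0162), and its second probe averaged 1.68 against -0.39 (adjusted p = 0.0143). HOXA11-AS, a transcript beside it, stood at 1.34 and 1.64 against -1.05 and -1.01 (adjusted p = 0.0162); HOXA11, on its opposite strand, averaged 0.63 in sh-G1. FZD4, a WNT receptor, stood at 0.85 and 1.13 against -0.65 and -0.63, with an adjusted p of 0.0623 and a second probe at 0.16. For these 5 genes, the groups of arrays did not overlap, which the choice of opposite directions fixes.

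SLITRK3, a neuronal adhesion protein, also lay on opposite sides of ctrl, at 2.35 and 1.96 in sh-G1 against -0.38 and -0.78 in sh-G2 (adjusted p = 0.00448), where 1 of the sh-G2 arrays missed the threshold. Other named genes passed the test with a difference in size. LUM and DCN were lower in both clones and further from ctrl in sh-G1, with differences of -2.53 and -2.15 (adjusted p = 0.0178 and 0.0295). MMP10, a stromelysin, stood at -2.54 and -2.45 in sh-G1 against -4.54 and -4.25 in sh-G2 (adjusted p = 0.0434). BMP2, a bone morphogenetic ligand, stood at -1.42 and -0.96 against -2.99 and -2.60 (adjusted p = 0.0189). PWWP3B stood at 2.01 and 2.42 against 4.03 and 3.95 (adjusted p = 0.0494). Leaving out sh-G1 array 2 took the adjusted p of DCN, MMP10 and BMP2 to 0.0845, 0.171 and 0.28, and leaving out array 1 took that of MMP10 and PWWP3B to 0.0837 and 0.115. PWWP3B missed the test under 8 of the 15 alternative settings and MMP10 under 5. Of the 33 genes past the test, WNT5A, DMD, CSMD3 and ALB were near ctrl in sh-G1, at means of -0.11, -0.07, -0.01 and -0.24, and were chosen here after their values were seen. They were higher in sh-G2, at means of 2.99, 2.46, 1.34 and 0.90. TYRP1 and ITPRID2, chosen in the same way, averaged -0.13 and -0.10 in sh-G1, with their arrays on both sides of ctrl. These genes were lower in sh-G2, at means of -2.01 and -2.06.

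**Figure D3:**
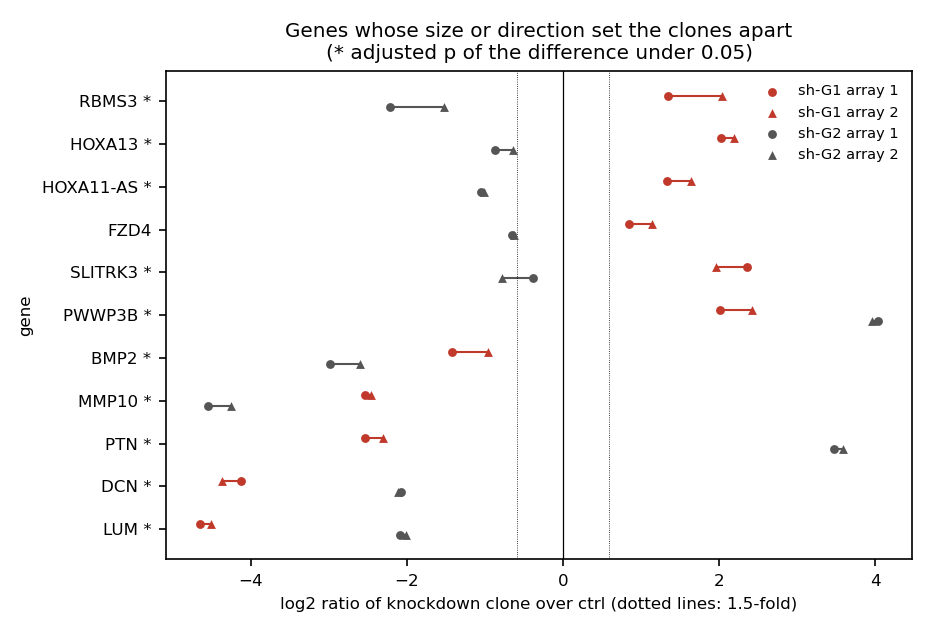
Log2 ratio over ctrl on each array for the genes that went opposite ways in the clones and for SLITRK3, PWWP3B, BMP2, MMP10, DCN and LUM. The difference between the clones passed the limma test for these last 6 genes. Each point is 1 array; PTN lies at -2.54 and -2.31 in sh-G1 against 3.47 and 3.58 in sh-G2, and LUM at -4.65 and -4.51 against -2.08 and -2.01.

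The pleiotrophin, midkine and receptor list held 3 lower genes of 12 measured (25%, against 1.64% of all genes). MDK, midkine, the other member of the PTN family, stood at -1.54 and -1.38, and at a mean of -1.32 in sh-G2. SDC2, a heparan sulfate proteoglycan that binds both factors, stood at -1.08 and -0.74. The median of the list was -0.0036. Among the heparan sulfate enzymes, 2 of 25 were higher (8%, against 0.641% of all genes), HS6ST2 and SULF1, and none lower, with a median of 0.0069.

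Genes of antigen presentation by MHC class I were lower in sh-G1 in the largest share of the 30 lists. This pathway cuts cytosolic proteins with the immunoproteasome, moves the peptides into the endoplasmic reticulum through the TAP transporter, and loads them on HLA heavy chains paired with beta-2 microglobulin. Of 21 measured genes 9 were lower (42.9%, against 1.64% of all genes) and none higher. The list median was -0.39, with -0.39 on array 1 and -0.60 on array 2; on the sh-G2 arrays it was -0.48.

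The upstream sequences of 3 genes of the pathway are shown because interferon-responsive genes often carry a GAAA repeat near their start, and because TAP1 and PSMB9 lie head to head. Each line gives 250 bases before the annotated start in the gene's own 5′ to 3′ direction, from RefSeq on GRCh38.p14. The windows are chr15:44711267-44711516 on the plus strand for B2M, chr6:32853705-32853954 on the minus strand for TAP1 and chr6:32853942-32854191 on the plus strand for PSMB9, so that the last pair overlap. Capitals mark matches of the letters GAAA, any 2 bases, then GAAA again, or of the reverse complement, TTTC, any 2 bases, then TTTC. Both strands were searched and overlapping matches counted.
B2M: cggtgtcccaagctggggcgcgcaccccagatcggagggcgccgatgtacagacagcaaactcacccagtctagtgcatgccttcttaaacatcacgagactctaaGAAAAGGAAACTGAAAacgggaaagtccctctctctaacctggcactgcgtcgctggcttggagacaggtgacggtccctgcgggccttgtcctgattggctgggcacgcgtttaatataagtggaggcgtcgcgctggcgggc
TAP1: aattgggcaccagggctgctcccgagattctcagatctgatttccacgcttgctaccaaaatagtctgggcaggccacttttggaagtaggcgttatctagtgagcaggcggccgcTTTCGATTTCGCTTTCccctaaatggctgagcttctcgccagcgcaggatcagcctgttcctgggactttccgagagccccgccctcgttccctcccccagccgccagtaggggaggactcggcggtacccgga
PSMB9: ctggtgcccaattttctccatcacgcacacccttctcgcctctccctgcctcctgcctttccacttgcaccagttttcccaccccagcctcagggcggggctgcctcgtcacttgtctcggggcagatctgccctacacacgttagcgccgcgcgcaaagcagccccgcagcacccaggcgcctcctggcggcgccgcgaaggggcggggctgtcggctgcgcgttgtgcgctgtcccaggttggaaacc
The windows of B2M and TAP1 hold 2 overlapping matches each and that of PSMB9 none. The TAP1 matches lie between the annotated starts of TAP1 and PSMB9, outside the stretch that both windows share. Such a match is in 839 of 27305 promoters (3.07%) in the RefSeq table. Within the list it is in 3 of 9 lower genes and in 4 of the 8 genes not past the threshold that have an entry. Any part of these letters in the lower values was not tested. A match is a description of the sequence.

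Step by step along the pathway, PSMB9, a catalytic subunit of the immunoproteasome, was furthest from ctrl at -2.21 and -2.09. PSME1, a proteasome activator subunit, stood at -0.77 and -0.62. TAP1, a TAP transporter subunit, stood at -1.25 and -1.40. ERAP2, which trims peptides in the endoplasmic reticulum, stood at -1.11 and -0.65, but its second probe averaged -0.06. B2M, the light chain, stood at -0.65 and -0.77. The heavy chains HLA-B, HLA-C, HLA-F and HLA-G stood at means of -0.92, -0.80, -0.83 and -0.80. HLA genes are near-identical in sequence and cross-hybridization between them cannot be told apart on these probes, so their single values are uncertain.

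**Figure D4:**
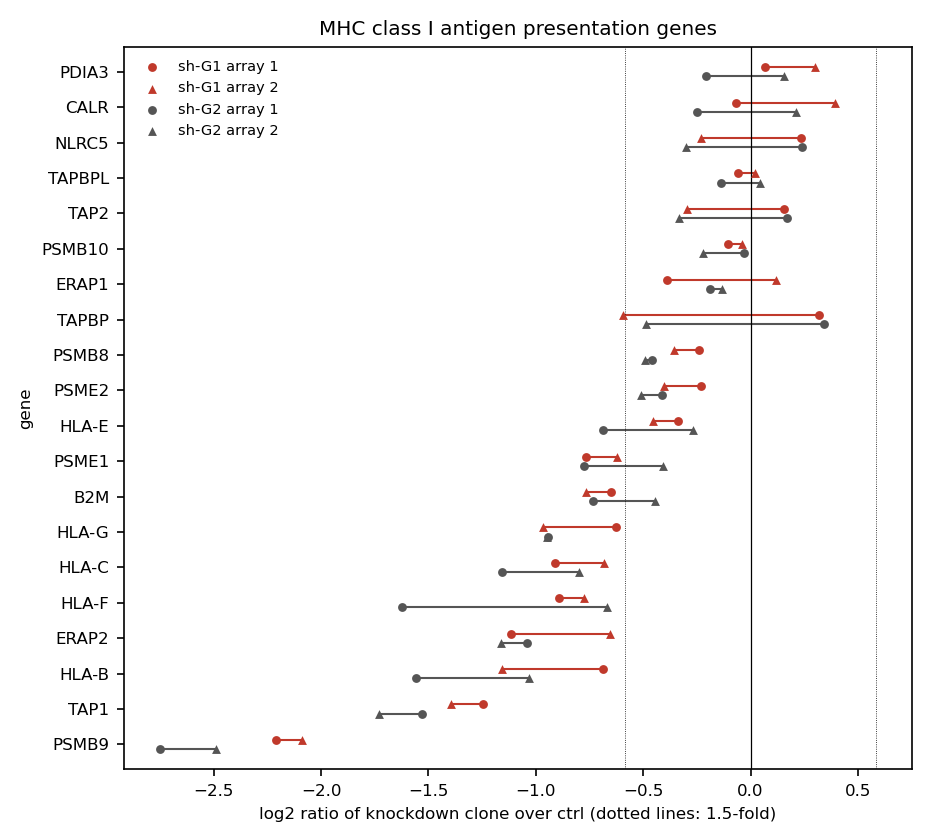
Log2 ratio of sh-G1 over ctrl on arrays 1 and 2 for measured MHC class I genes, with sh-G2 beside them. Each point is 1 array; PSMB9 lies lowest in sh-G1 at -2.21 and -2.09, and 9 genes lie at least 1.5-fold below ctrl on both sh-G1 arrays.

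Interferon-stimulated genes, the transcripts that interferons raise, were lower for 9 of 53 measured (17%, against 1.64% of all genes) with none higher and a median of -0.10. IDO1, a tryptophan-degrading enzyme, stood at -2.27 and -2.60. GBP1, a guanylate-binding protein, stood at -1.30 and -1.50, and IFI16, a sensor of DNA, at -1.16 and -1.10. IRF9, the DNA-binding subunit of the interferon-activated factor, stood at -0.60 and -0.98. The other lower genes were IFI44, IFITM1, MX1, OAS3 and USP18, with means between -0.59 and -1.03. By contrast ISG15 stood at 0.21 and 0.13, and IFIT1 at -0.69 and -0.22. Of the NFkB subunits and feedback genes, 2 of 33 were lower (6.06%, against 1.64% of all genes). These were NFKBIZ at -1.34 and -0.90 and TNFAIP2 at -1.03 and -0.80.

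Extracellular matrix genes were lower for 11 of 57 measured (19.3%, against 1.64% of all genes) and higher for 2 (3.51%, against 0.641%). Besides LUM and DCN, the laminin chain LAMB1 stood at -2.92 and -2.62 and periostin, POSTN, at -2.43 and -1.97. CCN1 and CCN2, matricellular proteins, averaged -1.17 and -1.73. NID2, a basement membrane linker, averaged -1.33, and LOXL1, a collagen and elastin crosslinking enzyme, -1.30. COL6A2, COL18A1 and MFAP2 completed the lower genes at -0.82, -0.86 and -0.95. HAPLN1, which links hyaluronan to proteoglycans, was higher at 1.63 and 1.89, and COL3A1 at 0.92 and 0.89. The list median was -0.08. Among the matrix metalloproteinases and plasmin system 4 of 31 were lower (12.9%, against 1.64% of all genes) and 1 higher (3.23%, against 0.641%). MMP3 stood at -2.51 and -2.38, MMP1, a collagenase and neighbour of MMP10, at -1.78 and -1.40, and the serine protease HTRA1 at -1.18 and -1.05, while ADAMTS1 was higher at 0.66 and 1.21.

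Adhesion genes lay on both sides of ctrl. Of 33 cadherins and protocadherins 4 were higher (12.1%, against 0.641% of all genes) and 2 lower (6.06%, against 1.64%). The higher genes were PCDH17 at 1.74 and 2.02, PCDH20 at 1.74 and 1.59, PCDH15 at 1.00 and 1.08 and PCDH7 at 0.83 and 1.03. PCDH9 at -2.72 and -2.63 and CDH2, N-cadherin, at -1.16 and -0.86 were lower. Of 28 integrins and syndecans 2 were higher (7.14%, against 0.641% of all genes) and 1 lower (3.57%, against 1.64%). The collagen receptor chain ITGA1 stood at 1.08 and 1.24 and the glypican GPC4 at 0.96 and 0.81, and SDC2 was the lower gene. Epithelial and mesenchymal regulators were lower for 5 of 31 (16.1%, against 1.64% of all genes) with none higher. KRT18 stood at -2.31 and -2.84 and its keratin partner KRT8 at -1.08 and -1.01, while ZEB2, a repressor of E-cadherin, stood at -1.11 and -1.22 and the tight junction protein OCLN at -1.28 and -0.70. CDH1, E-cadherin, gave -0.06 and 0.04 at a dim probe, and VIM 0.46 and -0.24.

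**Figure D5:**
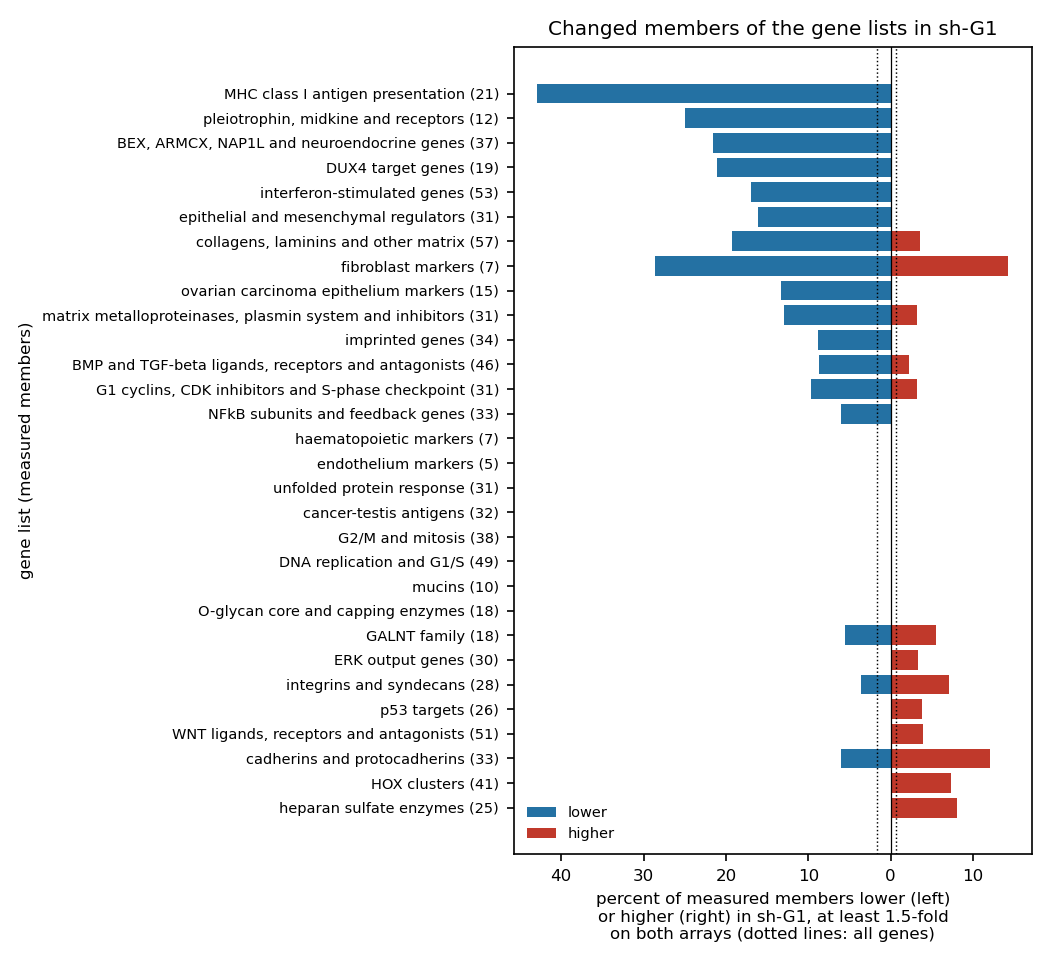
Percent of the measured members of each gene list that were at least 1.5-fold lower (left) or higher (right) in sh-G1 on both arrays, with dotted lines at the 1.64% and 0.641% of all genes. MHC class I antigen presentation has the largest share of lower genes, 42.9% of 21, followed for lists of over 10 genes by the pleiotrophin list at 25% of 12.

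Signalling ligands and receptors differed gene by gene. Among BMP and TGF-beta genes 4 of 46 were lower (8.7%, against 1.64% of all genes) and 1 higher (2.17%, against 0.641%). The ligands BMP2, BMP4 and TGFB2 averaged -1.19, -1.04 and -1.47 and SOST, a secreted antagonist, -1.29, whereas the ligand BMP7 stood at 1.38 and 1.52. Of 51 WNT genes 2 were higher (3.92%, against 0.641% of all genes) and none lower. The higher genes were FZD4 and the planar polarity gene PRICKLE1, the latter at 1.06 and 1.1. Of 30 ERK output genes 1 was higher (3.33%, against 0.641% of all genes) and none lower. DUSP6, a phosphatase of ERK, stood at 1.61 and 2.40, and at a mean of 1.18 in sh-G2. Of 41 HOX genes 3 were higher (7.32%, against 0.641% of all genes), HOXA13, HOXA11-AS and HOTAIR, the last at 1.89 and 1.48.

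Genes of DNA replication and of mitosis lay near ctrl, while some G1 genes did not. None of 49 DNA replication genes and none of 38 genes of G2/M and mitosis passed the threshold, with medians of 0.09 and 0.05. Among 31 G1 cyclins, inhibitors and checkpoint genes 3 were lower (9.68%, against 1.64% of all genes) and 1 higher (3.23%, against 0.641%). CDK6, a kinase of G1, stood at -2.02 and -1.53, CCNG2 at -1.55 and -1.12 and the antiproliferative BTG1 at -0.93 and -0.84. CDKN1A, given above, was the higher gene, and the only one of 26 measured p53 targets past the threshold (3.85%, against 0.641% of all genes). MDM2, the p53 ubiquitin ligase, gave -0.05 and -0.01. The median of the p53 targets was 0.12, with 0.15 and 0.22 on the single arrays. None of 31 genes of the unfolded protein response passed, with a list median of 0.10. The highest of them, TRIB3, stood at 0.53 and 1.22, past the threshold on array 2 alone, and averaged 0.10 in sh-G2.

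Genes that are silent or restricted in many tissues were also among the lower ones. Of 37 BEX, ARMCX, NAP1L and neuroendocrine genes 8 were lower (21.6%, against 1.64% of all genes) and none higher. Besides BEX1, UCHL1, ARMCX2 and NAP1L3, the neurofilament NEFL stood at -2.18 and -1.81, BEX2 at -1.54 and -1.73, ARMCX3 at -1.20 and -1.19 and INA at -0.91 and -1.02. Of the DUX4 targets, genes of the cleavage-stage embryo, 19 of 42 were measured and 4 lower (21.1%, against 1.64% of all genes). These were TRIM43 at -2.76 and -2.78, MBD3L2 at -2.09 and -2.35, KHDC1 at -2.26 and -2.17 and TRIM49 at -1.16 and -1.12. ZSCAN4, another member, stood at -0.27 and -0.39 by its brightest probe, not past the threshold, and the list median was -0.14. TRIM43 and TRIM49 have near-identical copies, so their single values are uncertain. Imprinted genes were lower for 3 of 34 (8.82%, against 1.64% of all genes), MEST, KCNQ1OT1 and PEG10, the last at -0.90 and -0.65. None of the 32 measured members of the cancer-testis antigen list passed. That list does not hold every such gene. CT83, a cancer-testis antigen outside it picked after its values were seen, stood at -2.63 and -2.42, and at a mean of -2.98 in sh-G2.

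Markers of other cell types were checked in the same way. The haematopoietic list had none of 7 and the endothelial list none of 5 past the threshold, with PTPRC at 0.06 and -0.0007 and PECAM1 at 0.01 and 0.02. Of 15 markers of ovarian carcinoma epithelium KRT8 and KRT18 were lower (13.3%, against 1.64% of all genes). WFDC2 averaged -0.64, EPCAM -0.54 and PAX8 -0.13. Of 7 measured fibroblast markers COL3A1 was higher (14.3%, against 0.641% of all genes) and LUM and DCN lower (28.6%, against 1.64%), with a list median of -0.37. The part of other cell types in the matrix results was not tested.

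Some of the genes past the threshold are neighbours in the order of measured genes. Of these 387 genes, 66 formed 36 pairs of neighbours among measured genes that were past the threshold in the same direction, 14 pairs higher and 22 lower. Other RefSeq genes lie between the members of many pairs, up to 31 for PCDH7 and ARAP2. The share over all neighbouring pairs was not counted, so 36 cannot be called many or few. Both genes belong to the changes found in sh-G1 alone for SLC10A4 with ZAR1 and for SYT4 with SETBP1. SLC10A4 and ZAR1 on chromosome 4 averaged 1.02 and 1.87, against -0.13 and -0.09 in sh-G2. SYT4 and SETBP1 on chromosome 18, with 13 RefSeq genes between them, averaged 3.25 and 0.74, against 0.03 and -0.10. In other pairs 1 gene belongs to that group. AADAC, of that group, and SUCNR1 on chromosome 3 averaged 1.21 and 3.46, against 0.16 and 1.98. BCHE, also of that group, and SLITRK3 on chromosome 3 averaged 1.63 and 2.15, against 0.13 and -0.58. Among the lower pairs, KERA, LUM and DCN lie in a row on chromosome 12, with KERA at a mean of -1.36, against -1.39 on the sh-G2 arrays. MMP10, MMP1 and MMP3 lie near each other on chromosome 11. No test of this clustering was made.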

How the data were processed

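Total RNA of A2780s clones was hybridized on Agilent 2-colour Whole Human Genome arrays. The authors deposited scanner files, whose spot intensities (median signal, median local background) were used here, and a value table. Per the file headers the software was Feature Extraction 10.5.1.1, while the submitters' processing notes name 8.5.1.1. The deposited log10 ratios (red over green) come from that software and served as an alternative. In the deposited value table the column of the first sh-G1 array equals those log10 ratios in all 45015 rows, but the dye-swap column equals the error of the ratio in all 45015 rows, so it is not a ratio and was not used. The labels write the line of ctrl as A27803 on the Cy5 arrays.

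Intensities were background-corrected (normexp, offset 50) and loess-normalized within arrays with limma 3.58.1 in R 4.3.3, outlier spots were dropped, spots of a probe averaged, and the swap turned. Probes with either channel well above background on both sh-G1 arrays were kept, 39639 of 40905. Of 41000 probes 25398 matched a symbol in the GRCh38.p14 RefSeq table, from which names and the order of genes were taken; a gene takes its brightest kept probe. The threshold was 1.5-fold on both arrays. The clone difference was fitted by limma with a trended prior on mean brightness, chosen with the data seen. Tested on simulated data, it made more false calls than its threshold allows, most of all where each probe kept its own spread, so its adjusted p-values are too small. Precision is limited by the number of arrays.

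Genes were named by rule: the GALNT family, the 12 largest changes a direction, the 12 largest a direction absent in sh-G2 (those past the test first), all opposite genes, and up to 4 members of each list by size besides its defining genes; a few genes these rules select are not reported here. Members, lists and rules were chosen with earlier results of these data known. Alternatives covered background, normalization, filters, thresholds, left-out arrays and the model.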

Additional observations from a re-analysis of the deposited data

Results flagged for a closer look

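These genes are listed because the effects of the clones against the same ctrl differed, by the limma test of the difference or, for FZD4, by opposite directions on every array, where the difference missed the test. Values are the log2 ratio in sh-G1 minus that in sh-G2. Higher in sh-G1 were RBMS3 at 3.56, SYT4 at 3.22, SHISA3 at 3.07, HOXA13 at 2.86, SLITRK3 at 2.73, FMN2 at 2.56, HOXA11-AS at 2.52, ASB5 at 2.34, ZAR1 at 1.95, MMP10 at 1.90, FZD4 at 1.63, BMP2 at 1.60, FSTL5 at 1.51, SLITRK6 at 1.41 and SULF1 at 1.19. Lower in sh-G1 were PTN at -5.95, LUM at -2.53, FOXN4 at -2.18, DCN at -2.15 and PWWP3B at -1.78. With 2 arrays a clone, no single array could be checked as an outlier.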

How the results depend on the processing

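The counts moved most with the number of arrays that had to pass. Leaving out either sh-G1 array gave 295 to 699 higher and 873 to 1279 lower probes. A 2-fold threshold gave 77 and 215, and a threshold on the mean of both orientations 745 lower. Probes absent in sh-G2 numbered 43 to 336 (higher) and 41 to 455 (lower) with any 1 array left out, 18 and 5 at 2-fold, 76 and 131 by the mean, 75 and 88 where absent meant under 1.5-fold, and 95 lower by the software's ratios. For the difference between the clones, leaving out an array gave 13 to 303 probes higher and 11 to 202 lower in sh-G1, where a lone array is assumed to vary like the others. No background correction gave 23 and 12, and the filter on all 4 arrays and on both channels gave 13 lower each, against 33 by the software's ratios. The array numbers pair through the dye orientation, so the dye term is the replicate block, and without that replicate block 2 probes were higher and 3 lower. With 2 alternatives added after seeing the data, no trend in the prior gave 22 and 9, and a trend on the mean log ratio 1 and 2. The mean of GALNT3 was 0.22 under median centring and -0.09 to 0.08 otherwise, and that of DGCR8 turned from -1.22 to 0.0172 by the software's ratios. Of 662 called probes 598 were still called by the software's ratios and 610 under median centring. Of 330 list medians under alternatives 289 stayed within 1 SD of the arrays. The causes were not tested.

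With 1 clone a condition, the spread between clones was not measured. Dim probes such as that of GALNT3 have little room to show a decrease.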

Other observations

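MALAT1, a long nuclear RNA, was picked out after its values were seen. It was measured by 4 probes, which in sh-G1 stood at -1.57 and -1.46, -0.37 and -0.52, -1.32 and -0.95, and -1.19 and -0.33. The means of the same probes in sh-G2 were -0.49, -0.01, -0.11 and -0.33, and the brightest probe missed the limma test of the difference (adjusted p = 0.182). LUC7L3, a splicing factor picked in the same way, was not lower by its brightest probe, at a mean of -0.05, while another of its probes averaged -0.95 in sh-G1 and 0.40 in sh-G2 (adjusted p = 0.0749).

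Zinc finger genes of chromosome 19, 194 in number, had median log2 ratios of -0.19 on array 1 and -0.01 on array 2, and the 204 zinc finger genes elsewhere -0.13 and 0.02. At a second probe of ARMCX3 sh-G1 was not well above background, which gives sh-G1 at least 2.54-fold lower there, and likewise at least 1.86-fold lower at a probe of ZNF702P.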
